A study of Mus musculus with 8 samples.

Results

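FXR, SHP, the retinoid X receptors RXRα and RXRβ and the liver X receptors LXRα and LXRβ were followed through an FXR agonist experiment in cultured kidney cells. The 6 genes Nr1h4 (FXR), Nr0b2 (SHP), Rxra, Rxrb, Nr1h2 (LXRβ) and Nr1h3 (LXRα) were taken by name from the 20659 named genes on the array, and all 8 probes whose transcript belonged to one of them were used, of 39429 probes in all. Cells came from kidney cortex of 6-week-old male mice of the strain labelled C57/BJ, and were digested, sieved and grown to confluence as primary proximal tubule cultures. In serum-free DMEM, 4 samples received 1 uM GW4064, a synthetic FXR agonist, and 4 received the vehicle DMSO, in each case for 24 h. Total RNA was labelled with Cy3 and measured on one-colour Agilent arrays, so each probe gave 1 brightness per array. No label ties the 4 samples of either group to different cultures or mice, and the p-values below therefore cover the spread among these samples only, which could be technical.

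FXR is the nuclear receptor that senses bile acids. It binds DNA as a heterodimer with an RXR and turns on genes that export, bind and conjugate bile acids, and in liver it turns on SHP, a receptor without a DNA-binding domain that represses other nuclear receptors and thereby bile acid synthesis. The LXRs sense oxysterols, share the RXR partners with FXR and turn on genes for cholesterol efflux and fatty acid synthesis. In the kidney FXR is known from the tubule epithelium, including the proximal tubule.

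Between 61.4% and 65.7% of probes were well above background on an array, and log2 values of any 2 arrays correlated at 0.993 to 0.997 over the 24723 probes kept. The arrays lay on 2 slides, each with 2 GW4064 and 2 DMSO samples. GW4064 samples always took the last 2 places of a slide and DMSO samples the first 2, so place and treatment cannot be told apart. Of 16 proximal tubule markers, 15 were tested and none was without an array well above background. Their summed signal was 107 to 124 in GW4064 samples and 74.3 to 91.9 in DMSO samples, with 11 markers higher and 0 lower in limma. Pdzk1, the largest part of this sum, averaged 44.4 in GW4064 samples and 38.0 in DMSO samples and did not pass (limma adjusted p = 0.0748). Slc34a1, Slc27a2 and Slc4a4 did not pass either, and Slc4a4 had a log2 difference of -0.14. Of the tested markers 73.3% were called at an adjusted p of 0.05, against 20.8% of all genes tested. The hepatocyte markers Alb, Apoa1, Cyp7a1 and F2 were well above background on 0 of 8 arrays. The rest of that list was detected: Ttr on 3 of 4 arrays in each group and Serpina1a on 4 of 4 in each. Signals are given as the processed brightness divided by the 75th percentile of that array, so that 1 is the 75th percentile probe, and differences are given on the log2 scale, GW4064 minus DMSO.

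Of the 6 genes, Nr1h3 was higher, Nr1h4 was lower, Rxra, Rxrb and Nr1h2 did not pass the test, and Nr0b2 was too dim to be tested. Among all 14476 genes tested, 20.8% passed the limma threshold (adjusted p of 0.05); 11.8% were called higher in GW4064 samples and 8.95% were called lower. The 2 calls among 5 tested receptors are therefore read as single results and not as a property of the group. The groups did not overlap for Nr1h4 and Nr1h3, against 26.1% of all genes tested.

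Nr1h4, the gene of the receptor that GW4064 activates, had scaled signals of 4.12, 4.20, 3.79 and 4.10 in GW4064 samples, against 5.80, 5.54, 5.44 and 5.38 in DMSO samples. Every GW4064 sample lay below every DMSO sample. The means were 4.05 ± 0.181 in GW4064 samples and 5.54 ± 0.186 in DMSO samples (SD, n = 4 each). The log2 difference was -0.45 ± 0.05 (SE; 95% interval -0.56 to -0.35), or 1.37-fold lower, with a limma adjusted p of 0.000302. In these bulk samples, fewer cells of a type and less RNA per cell cannot be told apart. Nr1h4 was lower by a similar amount on both slides, with log2 differences of -0.45 on the first (adjusted p = 0.0302) and -0.46 on the second (adjusted p = 0.0760), each from 2 arrays against 2 in limma. Of all genes tested, 92.7% had a smaller log2 difference than Nr1h4 in either direction, and 2.85% fell further.

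Nr0b2, the gene of SHP and a standard FXR target in liver, was at the limit of the array. Its processed brightness was 16.7, 18.8, 4.57 and 10.6 in GW4064 samples, against 13.1, 4.75, 11.2 and 5.27 in DMSO samples. The lowest brightness of any probe well above background was 15.4 to 17.1 on GW4064 arrays and 19.6 to 23.9 on DMSO arrays. The probe was well above background on 1 of 4 GW4064 arrays, replicate 2, and on 0 of 4 DMSO arrays. The groups overlapped. No fold change is given, because 7 of the 8 values were not well above background and the detection limit lay above the mean of the GW4064 samples. A change in Nr0b2 was not detectable at this brightness, which does not show that there was none.

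The 2 partner receptors showed no difference past the threshold. Rxra, the main RXR of liver, had scaled signals of 0.214, 0.202, 0.180 and 0.168 in GW4064 samples, against 0.172, 0.160, 0.179 and 0.166 in DMSO samples. GW4064 replicates 1 and 2, both on the first slide, lay above every DMSO sample, GW4064 replicate 3 lay just above the highest of them, and GW4064 replicate 4 lay among them. The log2 difference was 0.17 ± 0.08 (SE; 95% interval -0.01 to 0.35), with a limma adjusted p of 0.173. It was 0.32 on the first slide (adjusted p = 0.0772) and 0.01 on the second (adjusted p = 0.951), and the difference between slides was not tested. The dimmer second Rxra probe ran from 0.0433 to 0.0506 in GW4064 samples and from 0.0387 to 0.0499 in DMSO samples. Its log2 difference was 0.08 ± 0.08 (SE), with a limma adjusted p over probes of 0.539, and on it the GW4064 samples of the first slide did not stand above the DMSO samples.

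Rxrb, an RXR found in most tissues, had scaled signals of 7.87, 8.26, 8.31 and 7.97 in GW4064 samples, against 8.50, 7.85, 8.27 and 7.54 in DMSO samples. The groups overlapped over most of their range. The log2 difference was 0.01 ± 0.05 (SE; 95% interval -0.10 to 0.12), with a limma adjusted p of 0.884. The interval for Rxrb leaves room for a change of up to 1.09-fold higher, or to 0.936 of the DMSO level. The interval includes 0, so no direction is given.

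The LXR genes differed from each other. Nr1h2, the LXR found in most tissues, had scaled signals of 13.5, 14.1, 13.7 and 14.5 in GW4064 samples, against 14.7, 13.4, 13.6 and 13.5 in DMSO samples. DMSO replicate 1 and GW4064 replicate 4 were the highest of the 8, and the groups overlapped. The log2 difference was 0.02 ± 0.04 (SE; 95% interval -0.08 to 0.12), with a limma adjusted p of 0.813, and its sign turned when GW4064 replicate 4 was left out.

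Nr1h3, the LXR of liver, fat, gut and macrophages, had scaled signals of 1.50, 1.42, 1.40 and 1.44 in GW4064 samples, against 1.06, 1.13, 1.11 and 1.10 in DMSO samples. All GW4064 samples lay above all DMSO samples. The means were 1.44 ± 0.0432 in GW4064 samples and 1.10 ± 0.0309 in DMSO samples (SD, n = 4 each). The log2 difference was 0.39 ± 0.04 (SE; 95% interval 0.30 to 0.48), or 1.31-fold higher, with a limma adjusted p of 0.000295. A second Nr1h3 probe gave scaled signals of 1.02, 0.994, 0.940 and 0.979 in GW4064 samples, against 0.708, 0.724, 0.700 and 0.703 in DMSO samples. It was 1.39-fold higher, with a log2 difference of 0.47 ± 0.04 (SE) and a limma adjusted p over probes of 0.000169, where 15.4% of all probes tested passed, 8.43% higher and 7.01% lower. Both Nr1h3 probes therefore were higher without overlap between the groups, which did not overlap for 23.1% of all probes tested. By slide the log2 difference of the brighter probe was 0.41 (adjusted p = 0.0472) and 0.36 (adjusted p = 0.0944), each from 2 arrays against 2 in limma.

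**Figure D1:**
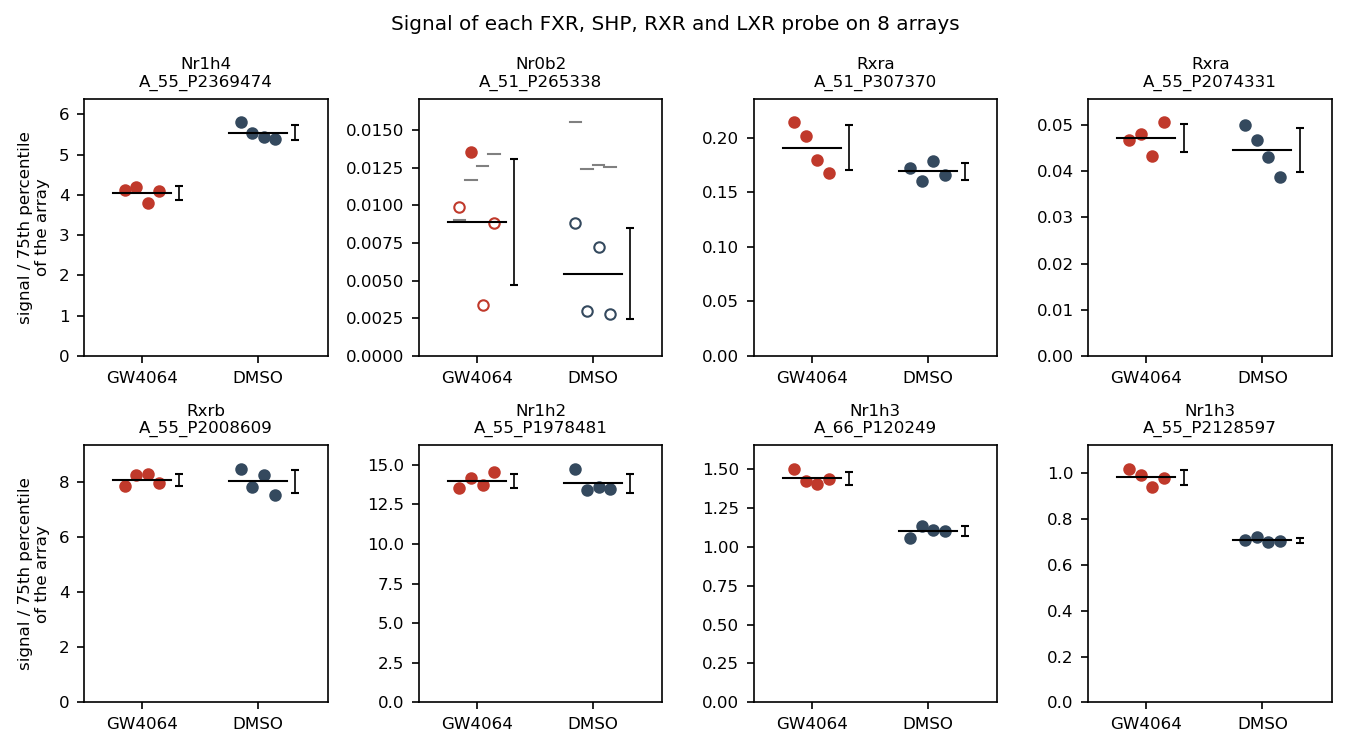
Signal of each of the 8 probes, divided by the 75th percentile of its array, on the 4 GW4064 and 4 DMSO arrays, with 1 panel per probe and a y axis from 0. Filled points were well above background and open points were not, lines are means, bars are SD, and grey dashes in the Nr0b2 panel mark the lowest signal well above background on each array. Groups do not overlap for Nr1h4 (3.79 to 4.20 with GW4064, 5.38 to 5.80 with DMSO) or for either Nr1h3 probe.

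**Figure D2:**
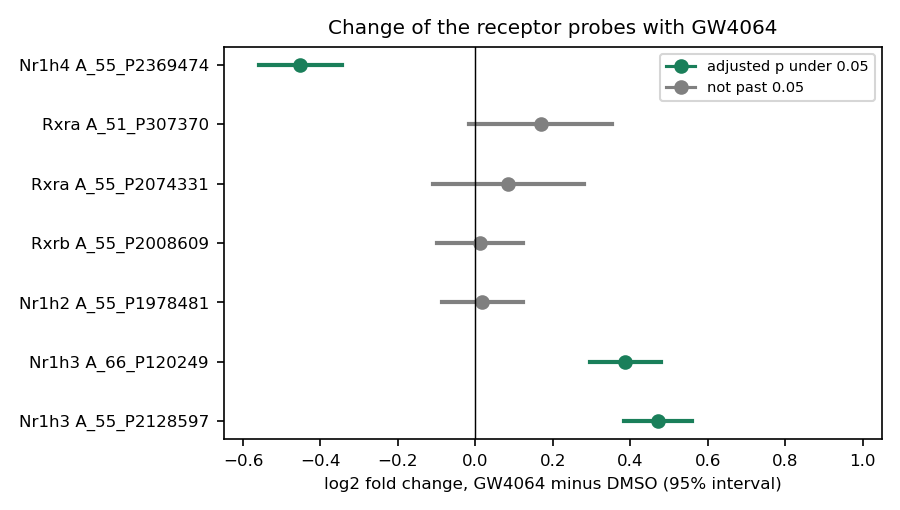
Log2 fold change (GW4064 minus DMSO) of the 7 receptor probes that passed the filter on dim probes, with 95% intervals from limma over all probes. Green marks an adjusted p over probes under 0.05. Nr1h4 lies at -0.45, the 2 Nr1h3 probes at 0.39 and 0.47, and the intervals of the Rxra, Rxrb and Nr1h2 probes include 0.

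Ratios between receptors on the same array do not depend on how arrays are scaled to each other, so all 10 pairs of the 5 tested genes were compared with a two-sided exact permutation test over the 8 arrays, a comparison chosen after the values were seen. The smallest p this design allows is 0.0286. After adjustment over the 10 pairs it became 0.0476, a value that depends on how many of the pairs reached that smallest p. Nr1h4 fell relative to each of the others: by 0.62 on the log2 scale relative to Rxra, by 0.46 relative to Rxrb, by 0.47 relative to Nr1h2 and by 0.84 relative to Nr1h3, each with that smallest exact p and an adjusted p of 0.0476. Nr1h3 rose relative to both Rxrb and Nr1h2, by the same test and at the same p, with log2 differences of -0.38 for Rxrb over Nr1h3 and -0.37 for Nr1h2 over Nr1h3. Rxra did not pass against Rxrb (0.16, exact p = 0.143), Nr1h2 (0.15, exact p = 0.257) or Nr1h3 (-0.22, exact p = 0.0857). The ratio of Rxrb to Nr1h2 differed by -0.01 (exact p = 0.857). The pairs share genes, and those that passed reuse the Nr1h4 or Nr1h3 values given above. They therefore restate those differences without the array scaling and are not separate support for them.

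**Figure D3:**
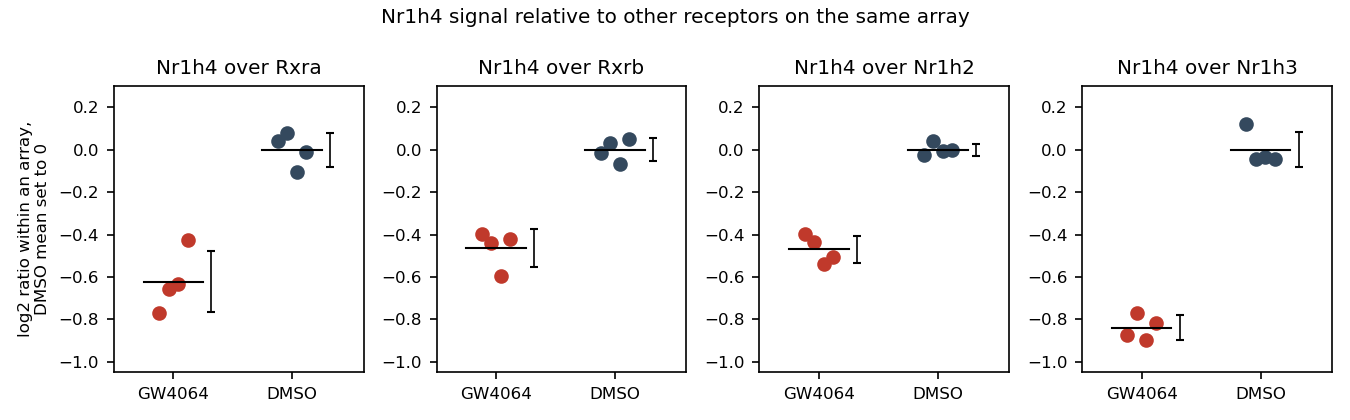
Log2 ratio of Nr1h4 to each of 4 other receptors on the same array (y axis), with the mean of the 4 DMSO arrays set to 0, for GW4064 and DMSO samples. Points are arrays, lines are means and bars are SD. In each panel all GW4064 arrays lie below all DMSO arrays, by a mean of 0.46 to 0.84.

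The 250 bases before each transcript start in RefSeq's promoter table were read for motifs of FXR, in GRCm38.p6, to show the sequence beside the changes. For Nr1h4, Nr1h3, Rxra and 1 of the 2 Rxrb windows that start lies inside the annotated span of the gene, so those windows stand before inner starts and not before the gene's outer end. The windows of Nr1h4 and Nr1h3 are printed because their transcripts moved. For Nr1h3 only the first of 2 windows is printed, and the second, chr2:91195036-91195285, overlaps it. The window of Nr0b2 is printed because Nr0b2 is a textbook FXR target, and those of Fabp6, Slc51a and Slc51b as target genes that rose. Capitals mark GGTNANTNACC, the core of an inverted repeat spaced by 1 base that FXR and RXR bind, or the half-site AGGTCA on either strand. This motif is the repeat AGGTCANTGACCT without its outer bases and with 1 base of each arm free, chosen with known target sites in mind, and it reads the same on both strands. No half-site overlapped it in the windows printed.
Nr1h4, chr10:89506659-89506908, minus strand: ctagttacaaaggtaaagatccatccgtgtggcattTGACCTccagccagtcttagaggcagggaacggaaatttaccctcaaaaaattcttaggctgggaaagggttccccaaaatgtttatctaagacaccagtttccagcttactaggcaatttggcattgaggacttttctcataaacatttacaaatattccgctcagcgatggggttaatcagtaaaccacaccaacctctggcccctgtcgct
Nr0b2, chr4:133553126-133553375, plus strand: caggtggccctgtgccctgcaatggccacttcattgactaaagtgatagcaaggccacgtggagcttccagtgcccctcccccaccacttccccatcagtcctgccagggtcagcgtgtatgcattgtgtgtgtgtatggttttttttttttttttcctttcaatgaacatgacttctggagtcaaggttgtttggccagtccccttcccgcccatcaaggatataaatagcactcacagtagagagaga
Nr1h3, chr2:91195117-91195366, minus strand: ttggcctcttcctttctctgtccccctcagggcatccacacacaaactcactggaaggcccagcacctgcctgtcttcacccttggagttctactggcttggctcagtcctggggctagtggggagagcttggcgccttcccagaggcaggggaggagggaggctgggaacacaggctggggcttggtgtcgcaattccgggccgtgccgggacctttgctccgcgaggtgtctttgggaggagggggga
Fabp6, chr11:43601563-43601812, minus strand: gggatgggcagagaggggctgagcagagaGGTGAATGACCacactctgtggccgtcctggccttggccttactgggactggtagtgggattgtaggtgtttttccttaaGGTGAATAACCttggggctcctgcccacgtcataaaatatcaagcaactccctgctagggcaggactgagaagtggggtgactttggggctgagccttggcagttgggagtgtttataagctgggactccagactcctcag
Slc51a, chr16:32487880-32488129, minus strand: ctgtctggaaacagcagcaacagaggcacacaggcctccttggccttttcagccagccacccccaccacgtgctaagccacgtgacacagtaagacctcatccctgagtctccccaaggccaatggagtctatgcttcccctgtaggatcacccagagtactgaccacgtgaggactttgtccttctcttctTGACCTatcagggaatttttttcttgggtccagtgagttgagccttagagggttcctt
Slc51b, chr9:65422774-65423023, minus strand: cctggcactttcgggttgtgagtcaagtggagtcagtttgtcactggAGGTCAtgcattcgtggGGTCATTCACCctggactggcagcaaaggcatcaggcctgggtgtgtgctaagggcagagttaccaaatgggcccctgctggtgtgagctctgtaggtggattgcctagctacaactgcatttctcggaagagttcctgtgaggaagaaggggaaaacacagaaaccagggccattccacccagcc

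The inverted repeat GGTNANTNACC was found in 0 of the 9 windows of the 6 receptor genes, where the 2 windows of Nr1h3 overlap. It was found in 72 of 32851 mouse promoter windows of the same length (0.219%). Fabp6 held 2 matches, GGTGAATGACC from -221 to -211 and GGTGAATAACC from -141 to -131, counted from that start. Slc51b held 1 match, GGTCATTCACC from -186 to -176. Slc51a, whose transcript differed more than that of Slc51b, held 0 matches in its window and only a half-site, from -58 to -53. The half-site AGGTCA, present in 14.0% of all windows on either strand, stood once in the Nr1h4 window, from -214 to -209, and in 1 of the 2 Rxra windows. The perfect inverted repeat AGGTCANTGACCT was in 0.00609% of windows, the direct repeat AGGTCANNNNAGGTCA that LXR and RXR bind was in 0.0152%, and neither was in a receptor window. A match is a description of these letters and not a bound site, and sequence outside the windows was not read.

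Known FXR targets were read beside Nr1h4. Of 16 listed, 11 passed the filter on dim probes, of which 5 were higher, 2 were lower and 4 did not pass. Fabp6, Baat and Slc27a5 passed that filter largely through the GW4064 arrays, so those counts are not set against all genes. The same holds for the median log2 difference of 0.41, also with Fabp6 at its bound, which was the value of Slc27a5. Of the 8 genes well above background on all 8 arrays, 4 were higher and 2 were lower, where 20.8% of all genes tested passed. Their median log2 difference was 0.16, against 0.01 over all genes. Slc51a and Slc51b, the 2 subunits of the basolateral bile acid exporter OST, had the 2 smallest p-values of the list. Slc51a averaged 11.8 ± 1.45 in GW4064 samples and 0.0991 ± 0.0216 in DMSO samples (SD, n = 4 each), a 120.6-fold difference. Slc51b averaged 12.9 ± 0.527 in GW4064 samples and 1.23 ± 0.122 in DMSO samples, a 10.6-fold difference. C3, the central complement protein, was 7.09-fold higher with a limma adjusted p of 2.07e-06. Fabp6, which binds bile acids inside ileal cells, was well above background on all 4 GW4064 arrays and on 0 of 4 DMSO arrays. It was at least 61.4-fold higher, set against the lowest signal well above background on each DMSO array or the probe's own where higher. Abcb11, Fgf15, Ugt2b1 and Ces1g were well above background on 0 of 8 arrays, against 1 of 8 for Nr0b2, and no probe was matched to Apoc2. The other higher gene was Abcb4, a phospholipid exporter, at 1.25-fold. The 2 lower genes of the list were Sdc1, a heparan sulfate proteoglycan, at 1.28-fold, and Vldlr, a lipoprotein receptor, at 1.31-fold. These 3 were named after their values were seen. A second, dimmer Vldlr probe was lower by 0.28 and did not pass (limma adjusted p over probes of 0.0639).

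LXR targets were read beside Nr1h3 and Nr1h2. Of 22 listed, 20 were tested, and Abcg5 and Abcg8 were well above background on 0 of 8 arrays. Of the tested genes, 6 were higher, 3 were lower and 11 did not pass, with a median log2 difference of 0.06. The share called was 45%, against 20.8% of all genes tested. Apoe, the lipoprotein of cholesterol transport, averaged 18.5 ± 1.10 in GW4064 samples and 10.3 ± 0.621 in DMSO samples (SD, n = 4 each), 1.79-fold higher with a limma adjusted p of 5.12e-05. Abca1, the exporter of cellular cholesterol, was 1.30-fold higher with a limma adjusted p of 0.00231. Rnf145, an LXR-induced ubiquitin ligase, was 1.27-fold lower with a limma adjusted p of 0.00221. The next 4 genes were chosen after their values were seen. Abcg1, a cholesterol exporter that LXR induces in macrophages, averaged 0.478 ± 0.0284 in GW4064 samples and 0.478 ± 0.0214 in DMSO samples, and Srebf1, the regulator of fatty acid synthesis, differed by 0.11 ± 0.07 (SE, limma adjusted p = 0.299). Mylip, which degrades the LDL receptor, was 1.35-fold lower, and Scd2, a fatty acid desaturase, was 1.09-fold lower. A second, dimmer Mylip probe was lower by 0.41 and did not pass (limma adjusted p over probes of 0.0946). The list therefore held called genes in both directions. Of 8 oxysterol enzymes 2 were higher (25% called, near the 20.8% of all genes), among them Hsd3b7, which acts on hydroxylated sterols, at 1.11-fold. The other 6 did not pass, among them Cyp7b1 at -0.23 ± 0.11 (SE, limma adjusted p = 0.163).

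Other receptors that pair with RXR did not move in 1 direction. Of 14 tested, 4 were higher, 3 were lower and 7 did not pass (50% called, against 20.8% of all genes). Nr1i2, the pregnane X receptor that senses drugs and bile acids, averaged 0.495 ± 0.0277 in GW4064 samples and 0.173 ± 0.0347 in DMSO samples (SD, n = 4 each), 2.89-fold higher with a limma adjusted p of 9.73e-05. Rara, a retinoic acid receptor, was 1.29-fold higher on its brighter probe and had a log2 difference of 0.33 on its other. Rarb was 1.16-fold lower on its brighter probe with a limma adjusted p of 0.00528, and its second probe differed by 0.14 in the other direction with an adjusted p over probes of 0.506. The other called genes, named after their values were seen, were Vdr, the vitamin D receptor (1.22-fold higher), Nr4a2 (1.20-fold higher), Pparg, the fat cell regulator (1.15-fold lower), and Thra, a thyroid hormone receptor (1.15-fold lower). A second, dimmer Nr4a2 probe was higher by 0.22 and did not pass (limma adjusted p over probes of 0.0564). Rxrg, the third RXR, differed by 0.10 ± 0.09 (SE, limma adjusted p = 0.475), and Nr1h5, the mouse FXRβ, was well above background on 0 of 8 arrays.

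Of 10 receptors and factors known to work with SHP or in the bile acid circuit, 6 were tested. Of these 2 were higher, 1 was lower and 3 were not past the threshold (50% called, against 20.8% of all genes). Hnf4a, a master regulator of liver and proximal tubule genes, averaged 25.2 ± 1.11 in GW4064 samples and 14.0 ± 0.439 in DMSO samples (SD, n = 4 each), 1.80-fold higher with a limma adjusted p of 9.27e-06. Nr2f2, the orphan receptor COUP-TFII, was 1.23-fold lower. Nr5a2, the liver receptor homolog that SHP represses, was well above background on 1 of 4 GW4064 arrays and 0 of 4 DMSO arrays, which was the count of Nr0b2. Foxa1 had the same counts, Foxa2 was above background on 0 GW4064 arrays and 1 DMSO array, and no fold is given for these dim genes.

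Genes of the proteins that activate or silence these receptors are given beside the 20.8% of all genes that passed. Among 17 coactivators (11.8% called) 0 were higher and 2 were lower, Ppargc1a and Smarcd3. Ppargc1a, the PGC-1α coactivator of mitochondrial and nuclear receptor genes, averaged 1.51 ± 0.177 in GW4064 samples and 2.33 ± 0.0848 in DMSO samples (SD, n = 4 each), 1.55-fold lower with a limma adjusted p of 0.00118. Smarcd3, a subunit of the SWI/SNF chromatin remodeller, was 1.14-fold lower, and Ncoa3, a p160 coactivator, had a log2 difference of -0.20 ± 0.06 (SE, limma adjusted p = 0.0529). A dimmer Ncoa3 probe was lower by 0.16 (limma adjusted p over probes of 0.0316). For Ncoa1 1 dimmer probe was lower by 0.21 (0.00720 by the same test), while its brightest probe (0.468) and another (0.512) did not pass. Among 12 corepressors (25% called), Nrip1 (1.13-fold) and Gps2 (1.20-fold) were higher, Tbl1xr1 was 1.18-fold lower and 9 did not pass. The groups overlapped for Gps2, and neither of its probes passed in the fit over probes (limma adjusted p of 0.0541 and 0.100). The median log2 difference was -0.04 for coactivators and 0.01 for corepressors.

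**Figure D4:**
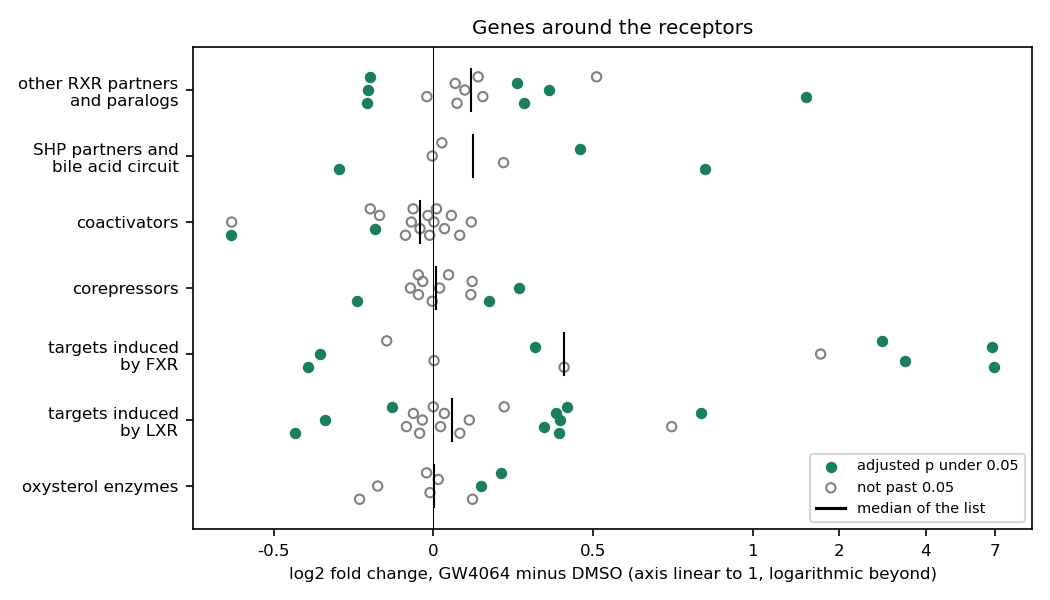
Log2 fold change (GW4064 minus DMSO, linear to 1 and logarithmic beyond) of the tested genes of 7 lists around the receptors. Filled points passed a limma adjusted p of 0.05 over all 14476 genes, open points did not, and black bars are list medians. FXR targets reach 6.91 (Slc51a), and the Fabp6 point is a fitted value of 6.81 whose DMSO arrays were all at background. The medians of coactivators and corepressors lie at -0.04 and 0.01.

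Some markers of leukocytes and macrophages, which also express Nr1h3, were higher with GW4064. Of 10 leukocyte and macrophage markers 9 were on the array and tested, with 4 higher (Csf1r, Cd74, C1qb and Coro1a), 0 lower and 5 not past the threshold. The share called was 44.4%, against 20.8% of all genes. The summed signal of the 9 was 13.9 to 16.1 in GW4064 samples and 10.7 to 12.2 in DMSO samples, and 0 of the 9 were at background on every array. Csf1r and Itgam made up most of this sum, and each of the others had a mean of at most 0.442 in either group. Itgam averaged 5.24 in GW4064 samples and 5.10 in DMSO samples and did not pass, so the sum mainly followed Csf1r. Csf1r, the macrophage growth factor receptor, averaged 8.74 ± 0.399 in GW4064 samples and 5.20 ± 0.171 in DMSO samples (SD, n = 4 each), 1.68-fold higher with a limma adjusted p of 2.35e-05. Ptprc, which all leukocytes express, lay the other way, with every GW4064 sample below every DMSO sample and a log2 difference of -0.90 ± 0.54 (SE, limma adjusted p = 0.279). Its DMSO values spread widely, from 0.0582 to 0.347. The part of these cells in the Nr1h3 result was not tested, nor was that of the proximal tubule markers given above in the Nr1h4 result.

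The genes whose pattern over the 8 arrays was most like that of a receptor were listed by Pearson correlation, as a description, since all points share the treatment, the slides and the scaling. Nr1h4 was closest to Pllp (0.997), Hsd3b2 (0.995) and Eif1b (0.994), which fell by 1.00, 0.96 and 0.15 on the log2 scale. Nr1h3 was closest to Homer2 (0.994), Csf1r (0.993) and Ccdc107 (0.993), which were higher by 1.68, 0.75 and 0.25 on the log2 scale. A correlation above 0.95 was reached by 180 genes for Nr1h4 and by 437 genes for Nr1h3, against 10 for Rxra, 6 for Rxrb and 5 for Nr1h2. The genes closest to Rxra were Glrx5, Mrps12 and Prss50, those closest to Rxrb were Adprhl2, Ercc2 and Cul7, and those closest to Nr1h2 were Olfr1564, Meis3 and Ier3, none of which passed the test. Nr1h4 and Nr1h3 correlated at -0.96 with each other over the 8 arrays.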

How the data were processed

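Each spot's brightness was deposited by the authors as intensity. Per the file headers, the scanner software (Agilent Feature Extraction 10.7.3.1) had subtracted the background, and the design was annotated on mm9. In the submitters' processing notes limma is named beside that software (10.7). The authors also deposited a table of log2 values, whose columns shared 1 distribution, with no centring of genes seen. It served as an alternative. Its scale was otherwise unstated.

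Controls (1377 of 44397 spots) and outlier spots (98 to 174 per array) were left out, and spots of a probe were averaged. The processed signal was taken to log2 and centred on the 75th percentile of its array. Of 39429 probes, 27234 (69.1%) matched a symbol by unversioned accession in a RefSeq table of GRCm38.p6, used for names only. No probe had several symbols. A probe was kept if well above background on at least 4 arrays with no array having all its spots marked (85 probes did), and the brightest kept probe stood for a gene, except where every probe is given. GW4064 was set against DMSO by lmFit and eBayes of limma 3.58.1 under R 4.3.3 (Benjamini-Hochberg over all genes or probes tested), with no covariate, and the script was tested on simulated data. Promoter sequences were RefSeq's, found for all 6 receptors.

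The receptors and gene lists were chosen with earlier results of these data known. Named genes were the 6 receptors, the 3 smallest p-values of each list, list genes at background in 1 group, and the 3 genes most correlated with each receptor. The values of 2 genes that this rule takes are not given. Other genes are said to be named after their values were seen. Further marker genes are named by their calls or as undetected. Alternatives covered background correction, normalization, filter, probes, blocks, weights, the deposited table and each array left out. Normexp used median spot signals. The number of arrays limits the precision.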

Additional observations from a re-analysis of the deposited data

Results flagged for a closer look

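Of 94 groups of 4 arrays examined among the named genes, 6 (6.38%) held an array far from the other 3, where chance gives about 5%. Values are log2 of the scaled signal. Nr1h2 stood at 3.88 in DMSO replicate 1, against 3.75 to 3.77 in the other DMSO samples. In the same array Apoe stood at 3.49, against 3.31 to 3.34, and Eif1b at 1.89, against 1.84 to 1.85. In GW4064 replicate 3, Eif1b stood at 1.66, against 1.72 to 1.73 in the other GW4064 samples, and Nr1i2 at -1.14, against -0.99 to -0.96. Hsd3b7 stood at 3.04 in GW4064 replicate 2, against 3.10 in each of the other 3.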

How the results depend on the processing

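Nr1h4 stayed lower and Nr1h3 higher under all 21 alternatives, past the threshold under 20 of them. On the second slide alone, with 2 arrays a group, Nr1h4 had a log2 difference of -0.46 (limma adjusted p = 0.0760) and Nr1h3 0.36 (0.0944). With each array left out, Nr1h4 ranged from -0.47 to -0.42 and Nr1h3 from 0.37 to 0.40. Rxra passed only with array weights (0.24, adjusted p = 0.0463), and ranged from 0.11 to 0.23 with each array left out. Rxrb reversed to -0.0011 with quantile normalization, -0.0031 with median centring, -0.0025 in the deposited table and -0.0185 on the first slide alone, and ranged from -0.0183 to 0.0391 with each array left out, negative without DMSO replicate 4 (-0.0183) or GW4064 replicate 3 (-0.00016). Nr1h2 reversed to -0.0249 on the first slide alone and ranged from -0.00079 (without GW4064 replicate 4) to 0.0492. Neither passed under any of them, and the cause of these turns was not tested. Nr0b2 was well above background on 1 array, and on 0 without GW4064 replicate 2. Genes passing numbered 3006, with 966 on the first slide alone, 220 on the second alone, from fewer arrays, and 2076 to 2827 with each array left out. Probes passing numbered 3818, with 2237 without the filter on dim probes, 572 on the first slide alone, 164 on the second alone and 2454 to 3419 with each array left out, including 2495 without DMSO replicate 2, 2454 without DMSO replicate 4 and 2537 without GW4064 replicate 1. Deviations from the group means correlated at -0.131 to 0.191 between same-numbered samples and at -0.200 to 0.199 between differently numbered ones. So few values cannot exclude a pairing by number, and no label gives one. With a replicate block 2322 genes and 2601 probes passed, and for no tested receptor did the block change the call: Nr1h4 -0.45 (adjusted p = 0.00362), Nr1h3 0.39 (0.00725), Rxra 0.17, Rxrb 0.01 and Nr1h2 0.02. Brightness limits Nr0b2. For Nr0b2 only detection is given, since the probe was at background on 7 of 8 arrays.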

Other observations

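Markers of other cell types were also tested, with limma adjusted p under the threshold for each gene called higher or lower. Which cells in the cultures gave these signals was not tested. Of the markers tested, 42.9% were called for endothelium, 37.5% for fibroblasts and pericytes and 50% for hepatocytes. Over all genes the share was 20.8%. The share for other nephron segments and podocytes is not set against it. Slc12a3 of that list passed the filter on dim probes largely through the DMSO arrays. Of 6 tested markers of other nephron segments and podocytes, 3 were lower with GW4064, Umod of the thick ascending limb (1.63-fold), the potassium channel Kcnj1 (1.55-fold) and Slc12a3 of the distal convoluted tubule (1.70-fold, well above background on 2 of 4 GW4064 arrays and 4 of 4 DMSO arrays), and 3 did not pass. Umod averaged 0.0648 ± 0.0144 in GW4064 samples and 0.105 ± 0.014 in DMSO samples (SD, n = 4 each). Of 7 tested endothelial markers 3 were higher, Esam (1.99-fold), Plvap (1.29-fold) and Cdh5 (1.26-fold), and Tek was well above background on 0 of 8 arrays. Of 8 fibroblast and pericyte markers 3 were higher, Tagln (1.44-fold), Pdgfrb (1.25-fold) and Acta2 (1.41-fold). Of 2 tested hepatocyte markers Serpina1a was 3.02-fold higher and Ttr did not pass (limma adjusted p = 0.671). The proximal tubule markers with the smallest p-values were Slc13a1, a sulfate transporter (5.74-fold higher), Gatm, an enzyme of creatine synthesis (3.87-fold higher), and Ggt1, a brush border enzyme (1.82-fold higher).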
